A study of Mus musculus with 7 samples.

Results

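Mitochondrial complex I, the NADH dehydrogenase that opens the respiratory chain, was examined through the nuclear genes whose symbols start with Nduf. On the arrays 74 probe sets carried a single symbol of this kind, and they stood for 39 of the 12393 genes measured. Where a gene had several probe sets, the brightest by its mean over the 7 arrays stood for it. By role, 6 were core subunits, 27 were accessory subunits and 5 were assembly factors, and the remaining gene, Ndufa4, keeps an Nduf symbol although its product is now assigned to cytochrome c oxidase. The accessory subunit genes Ndufa11, Ndufb4 and Ndufs6 and the assembly factor genes Ndufaf2, Ndufaf6 and Ndufaf8 had no single-symbol probe set in the data used here.

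The arrays, of the 430A 2.0 mouse design from Affymetrix, measured RNA from MN9D, a mouse hybrid line of midbrain neurons and neuroblastoma cells that serves as a model of dopamine-producing cells. The labels give 4 arrays of cells that overexpress the alpha and beta chains of mouse hemoglobin and 3 arrays of cells that carry an empty vector, and both groups are the same line. The design text counts 8 hybridised arrays and sets 1 control array aside for poor quality, and that array was not analysed here. The promoter of the vectors, the time of expression, and whether each group was 1 clone or a pool are not stated in the labels. The labels do not say that replicates came from separate cultures, so p-values measure the spread between these arrays only, which may be technical.

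Values are log2 RMA expression values, in which 1 unit is a doubling of signal, and array medians lay between 8.90 and 8.94. A difference is the globin-labelled mean minus the empty vector mean, ± marks the standard error from limma with 4 and 3 arrays, and a gene was called higher or lower at a Benjamini-Hochberg adjusted p under 0.05 over all 22626 probe sets. As a check of the labels, 3 probe sets shared by Hba-a1 and Hba-a2 rose by 35.8-fold to 142-fold, while a probe set of Hba-a2 alone and one of Hba-a1 alone were not called (-0.03 ± 0.05 and 0.03 ± 0.06). The probe sets of adult beta-globin differed by 1.26-fold at most, at a probe set of Hbb-b2 that was called higher (limma adjusted p = 0.00558). The probe set shared by several adult beta genes was not called (0.12 ± 0.06, limma adjusted p = 0.149). Since probe sets of the alpha genes could also stay flat, the beta values do not settle whether the beta chain was overexpressed, and the arrays are called globin-labelled. Of 6 dopaminergic markers Th, which makes the dopamine precursor, was the brightest, with a mean of 11.78 in the empty vector arrays and 11.08 in the globin-labelled arrays. Th and Ddc fell, by 0.70 ± 0.05 and 0.22 ± 0.05, 0 markers rose, and Slc6a3, Pitx3 and Foxa2 were dim in both groups. The summed signal of the 6 markers ran from 12.25 to 12.41 on the log2 scale in the empty vector arrays and from 11.81 to 11.88 in the globin-labelled arrays, and its part in the results on complex I was not tested. The 19 measured markers of astrocytes, oligodendrocytes, microglia, fibroblasts and endothelium were dim, the brightest at percentile 36.3 of all probe sets, and Kdr alone of them was called, lower by 0.27 ± 0.08.

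Complex I takes electrons from NADH at the tip of an arm that projects into the mitochondrial matrix, passes them along a chain of iron-sulphur clusters to ubiquinone, and uses the energy to pump protons through a second arm embedded in the inner membrane. The matrix arm is built from the N module, where NADH binds, and the Q module, where ubiquinone is reduced. The membrane arm has a proximal part next to the Q module and a distal part, and its proton-pumping core is encoded by mitochondrial DNA. Complex I is widely studied in dopamine neurons because its inhibitors damage them.

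Nduf genes were more often higher than lower in the globin-labelled arrays, by small amounts. Of the 39 genes 17 were called higher and 4 lower, where 20.6% of all 12393 genes were called higher and 20.1% lower, or 40.7% in all (39.5% of all probe sets). The median difference was 0.13 over the 39 genes and 0.02 over all genes. Core subunits divided into 4 higher and 0 lower of 6 (1 further gene had an unadjusted p under 0.05 in limma, also upward), accessory subunits into 11 higher and 1 lower of 27, and assembly factors into 1 higher and 3 lower of 5. The largest rise was that of Ndufv3 at 1.43-fold and the largest fall that of Ndufaf1 at 1.41-fold. At 25 of the 39 genes, and at 45.7% of all genes, the ranges of the groups were apart. Most members are bright on the arrays, with 28 of 39 among the 1240 brightest genes, and of those 1240 genes 45.5% were called, 23.4% higher and 22.1% lower.

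**Figure D1:**
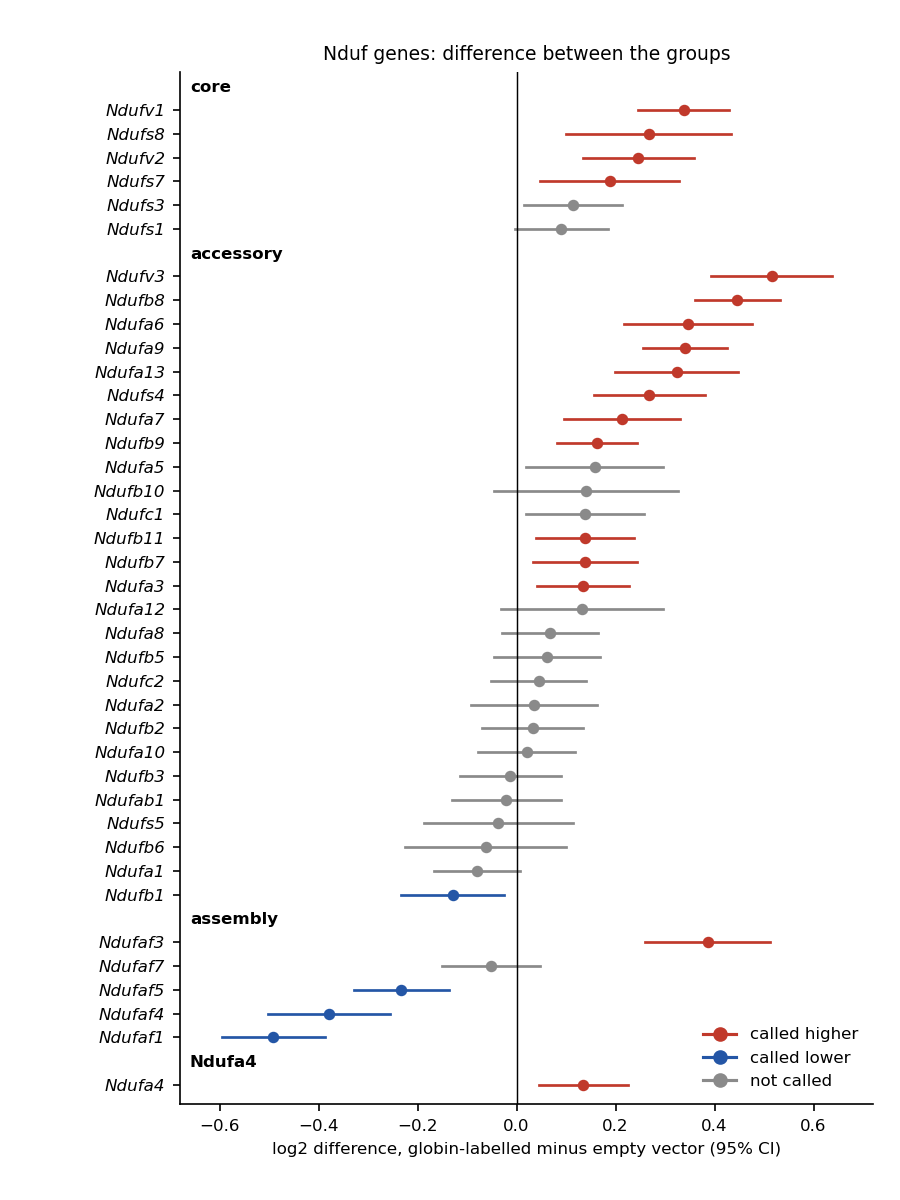
Log2 difference between the globin-labelled and empty vector arrays (x axis) for each of the 39 Nduf genes (y axis), grouped by role. Points are differences and lines 95% confidence intervals from limma, with 17 genes called higher in red, 4 called lower in blue and 18 not called in grey; the 3 largest falls are all assembly factors.

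One control array stood apart for these genes. Within the empty vector group array 1 held the lowest value at 35 of the 39 genes, against 38.3% of all genes and 48.3% of the 1240 brightest genes. Within the globin-labelled group array 4 held the lowest value at 24 of 39, against 27.3% of all genes and 38.9% of the 1240 brightest. The mean over the 33 subunit genes was 12.53 in empty vector array 1 and 12.64 and 12.65 in arrays 2 and 3, and it was 12.80, 12.72, 12.78 and 12.70 in globin-labelled arrays 1 to 4. Without empty vector array 1 the count fell to 11 higher and 4 lower, where 18.7% and 18.8% of all genes were called (37.5% together), and the median over the members fell from 0.13 to 0.09. The genes that lost their call were Ndufs7, Ndufs8, Ndufa3, Ndufb7, Ndufb11 and Ndufa4. Without that array and globin-labelled array 4 together, 12 were higher and 3 lower, against 34.2% of all genes called.

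**Figure D2:**
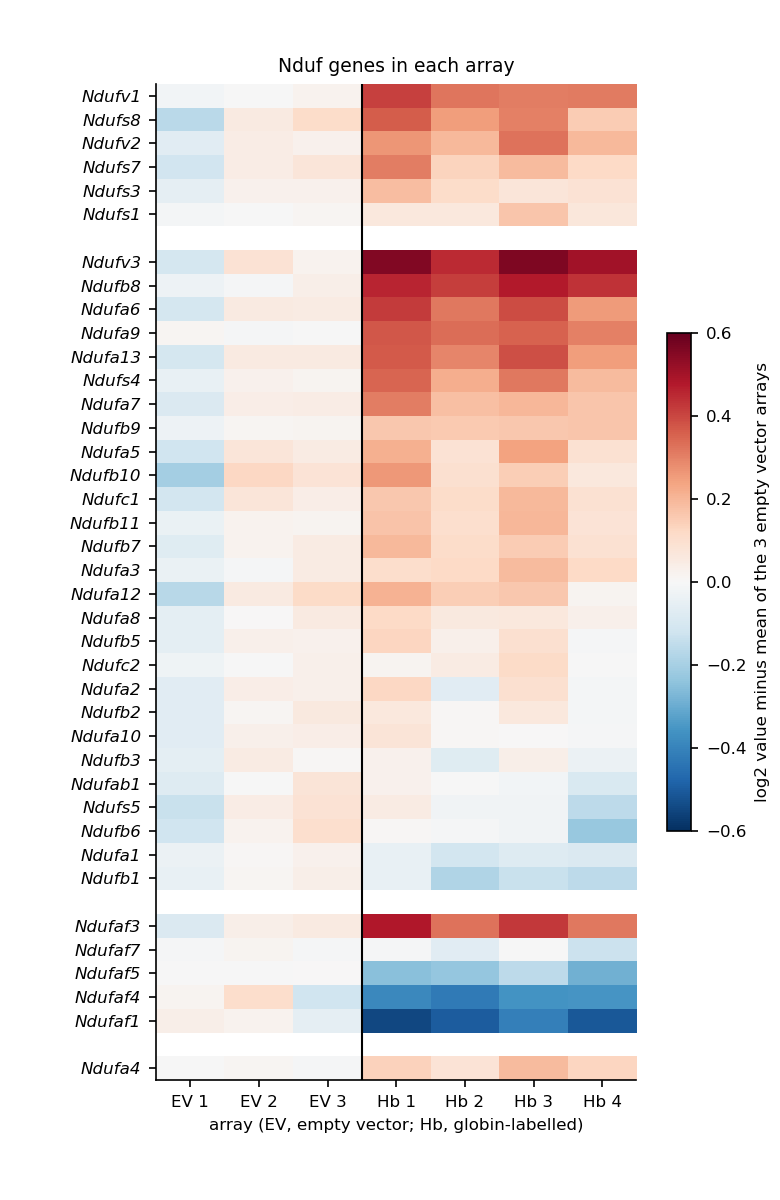
Log2 value of each Nduf gene (rows, in the order core, accessory, assembly, Ndufa4) in each array (columns; EV, empty vector; Hb, globin-labelled) minus the mean of the 3 empty vector arrays. Red is above and blue below that mean; the column of empty vector array 1 is the lowest of its group in 35 of 39 rows.

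**Figure D3:**
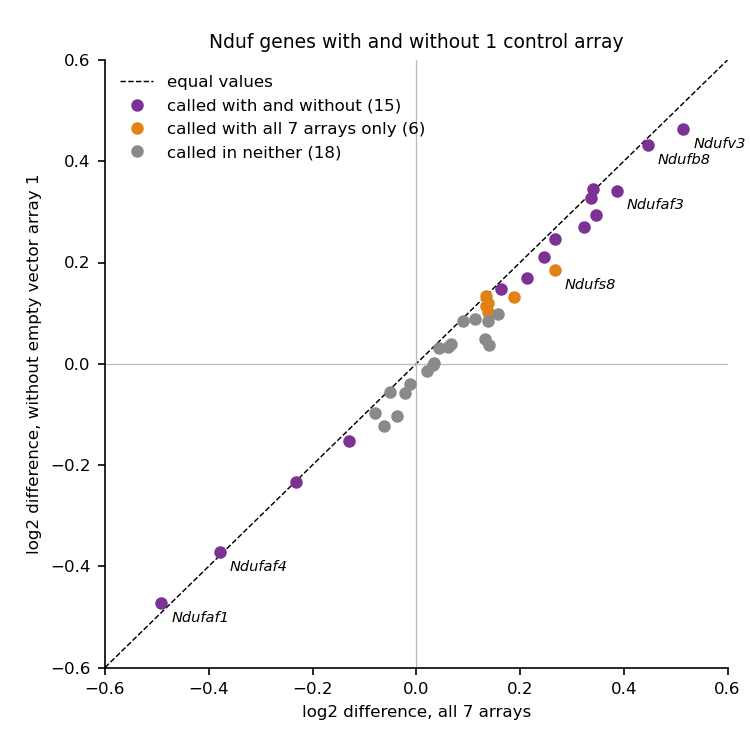
Log2 difference of each of the 39 Nduf genes with all 7 arrays (x axis) and without empty vector array 1 (y axis), with the line of equal values dashed. Purple points were called in both fits (15 genes), orange points with all 7 arrays only (6 genes) and grey points in neither (18 genes); Ndufaf1, Ndufaf4 and Ndufb8 lie close to the line.

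The core subunits, the conserved set that includes the cofactor-bearing proteins of electron transfer, all had positive differences. Ndufv1, which holds the flavin and the NADH site at the tip of the N module, read 12.52, 12.53 and 12.55 in the empty vector arrays and 12.94, 12.86, 12.84 and 12.85 in the globin-labelled arrays. The lowest globin-labelled array stood well above the highest empty vector array, and Ndufv1 rose by 0.34 ± 0.04, or 1.26-fold (limma adjusted p = 0.000183). Ndufv2, its iron-sulphur partner in the N module, read 13.33, 13.44 and 13.42 in the empty vector arrays and 13.66, 13.59, 13.72 and 13.59 in the globin-labelled arrays. It rose by 0.25 ± 0.05 (limma adjusted p = 0.00354) with no overlap. All 3 probe sets of Ndufv1 and all 3 of Ndufv2 were called higher.

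Of the 3 measured core subunits of the Q module, Ndufs8 and Ndufs7 were called higher. Ndufs8, which carries iron-sulphur clusters of the relay toward ubiquinone, read 12.40, 12.61 and 12.67 against 12.92, 12.81, 12.86 and 12.71. It rose by 0.27 ± 0.07 (limma adjusted p = 0.0175), with globin-labelled array 4 only just above empty vector array 3, and without empty vector array 1 the difference was 0.19 (limma adjusted p = 0.0554). Of its 6 probe sets 5 were called higher, and the dimmest was not called, at 0.08 ± 0.04. Ndufs7, which holds the last cluster before ubiquinone, read 12.47, 12.63 and 12.66 against 12.90, 12.72, 12.78 and 12.71. It rose by 0.19 ± 0.06 (limma adjusted p = 0.0382), on both of its probe sets, and without empty vector array 1 the difference was 0.13 (limma adjusted p = 0.133). The call was also lost without empty vector array 2 or globin-labelled array 1, 2 or 3 (limma adjusted p = 0.0595, 0.0836, 0.0501 and 0.0764).

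Ndufs3 and Ndufs1 did not pass the test. Ndufs3, a Q module protein without a cluster, read 12.70, 12.78 and 12.78 against 12.94, 12.86, 12.82 and 12.84, a difference of 0.11 ± 0.04 (limma adjusted p = 0.0684; the 95% interval runs from 0.01 to 0.21). It passed under other settings of the test, among them both other array scalings (limma adjusted p = 0.0497 and 0.0430). Ndufs1, the large N module subunit with several clusters, read 11.98, 11.99 and 12.00 against 12.06, 12.06, 12.16 and 12.06, a difference of 0.09 ± 0.04 (limma adjusted p = 0.114). At both genes the groups stayed apart, by a narrow margin.

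Of the 8 accessory subunits of the matrix arm 5 were called higher and 0 lower, against 20.6% and 20.1% of all genes. Ndufv3, a small N module subunit, read 11.26, 11.45 and 11.38 in the empty vector arrays and 11.92, 11.81, 11.92 and 11.87 in the globin-labelled arrays. The groups were far apart, and the rise of 0.52 ± 0.05 (limma adjusted p = 7.73e-05) was the largest of any Nduf gene in this fit. Ndufa6, which docks an acyl carrier protein onto the matrix arm, read 12.22, 12.38 and 12.38 against 12.75, 12.65, 12.72 and 12.59. It rose by 0.35 ± 0.06, or 1.27-fold (limma adjusted p = 0.00113), without overlap.

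Ndufa9, which sits on the Q module and binds a nicotinamide nucleotide, read 12.28, 12.26 and 12.27 against 12.64, 12.60, 12.63 and 12.57. It rose by 0.34 ± 0.04 (limma adjusted p = 0.000101), and it was 1 of the 4 members at which empty vector array 1 was not the lowest of its group. Ndufs4, which helps to hold the N module in place and whose loss in mice is used as a model of Leigh syndrome, read 11.31, 11.37 and 11.37 against 11.70, 11.57, 11.67 and 11.54. It rose by 0.27 ± 0.05 (limma adjusted p = 0.00223), and its dimmer probe sets rose by 0.31 ± 0.06 and 0.46 ± 0.05. Ndufa7 read 13.36, 13.49 and 13.50 against 13.76, 13.63, 13.65 and 13.62 and rose by 0.21 ± 0.05 (limma adjusted p = 0.00928), on 4 of its 5 probe sets.

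The other accessory subunits of the matrix arm did not pass. Ndufa5 of the Q module differed by 0.16 ± 0.06 (limma adjusted p = 0.0706), Ndufa12 of the N module by 0.13 ± 0.07 (limma adjusted p = 0.185) and Ndufa2 by 0.04 ± 0.06 (limma adjusted p = 0.661). With the core, 9 of 14 measured subunits of the matrix arm were called higher and 0 lower, against 20.6% and 20.1% of all genes. Differences of the 14 ran from 0.04 to 0.52, with a median of 0.23. A further 2 had an unadjusted p under 0.05 in limma, both upward. By module these were 6 of 9 in the N module (median 0.25) and 3 of 5 in the Q module (median 0.19).

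The membrane arm was more mixed. Of its 18 measured accessory subunits 6 were called higher and 1 lower, against 20.6% and 20.1% of all genes, with a median of 0.06. Without empty vector array 1 the counts were 3 higher and 1 lower (median 0.04), no larger a share than the 18.7% and 18.8% of all genes in that fit. Without globin-labelled array 3 there were likewise 3 higher, and the matrix arm without empty vector array 1 had 7 of 14 higher and a median of 0.18. The difference between the arms was not tested, since members of a list are not replicates of a condition. Ndufb8, a distal subunit often used as the marker protein of complex I, read 12.56, 12.59 and 12.63 against 13.05, 13.01, 13.07 and 13.03. The values were tight in both groups, and it rose by 0.45 ± 0.04, or 1.36-fold (limma adjusted p = 2.39e-05). Ndufa13 of the proximal part, also known as GRIM-19 for a role in cell death, read 12.14, 12.30 and 12.29 against 12.61, 12.54, 12.63 and 12.49 and rose by 0.32 ± 0.06 (limma adjusted p = 0.00134).

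Smaller rises made up the other membrane arm calls. Ndufb9, a distal subunit of the same protein family as Ndufa6, read 13.70, 13.75 and 13.75 against 13.90, 13.89, 13.90 and 13.90 and rose by 0.16 ± 0.04 (limma adjusted p = 0.00576). Ndufb11, an X-linked distal subunit, read 13.43, 13.50 and 13.49 against 13.65, 13.58, 13.67 and 13.55 (0.14 ± 0.04, limma adjusted p = 0.0320). Ndufa3, of the proximal part, read 13.04, 13.08 and 13.13 against 13.19, 13.21, 13.27 and 13.21 (0.13 ± 0.04, limma adjusted p = 0.0293). Ndufb7 of the distal part differed by 0.14 ± 0.05 (limma adjusted p = 0.0399). At these 4 genes the groups did not overlap, and without empty vector array 1 only Ndufb9 passed, at 0.15 (limma adjusted p = 0.0187). Without globin-labelled array 3 the adjusted p in limma was 0.0820 for Ndufb11, 0.0763 for Ndufa3 and 0.0868 for Ndufb7, and without empty vector array 2 it was 0.0542, 0.0753 and 0.0682. Ndufb11 was also lost without empty vector array 3 or globin-labelled array 1 (0.0595 and 0.0738), Ndufa3 without globin-labelled array 2 (0.0531) and Ndufb7 without globin-labelled array 1 or 2 (0.0929 and 0.0605).

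Ndufb1, a short distal subunit, was the accessory gene called lower, by 0.13 ± 0.05 (limma adjusted p = 0.0491). Its groups touched, array 1 of either group reading 8.60, and the call was lost with the arrays centred on their medians (limma adjusted p = 0.0614) and under quantile normalisation (limma adjusted p = 0.0503), and without empty vector array 2 or 3 or globin-labelled array 2, 3 or 4 (limma adjusted p = 0.0954 to 0.137). The 11 membrane arm genes that did not pass ran from Ndufa1 at -0.08 ± 0.04 to Ndufb10 at 0.14 ± 0.08. Ndufab1, the mitochondrial acyl carrier protein that is found in both arms and also serves fatty acid synthesis, was at -0.02 ± 0.05 (95% interval -0.13 to 0.09). Ndufa4, the cytochrome c oxidase subunit, read 12.64, 12.65 and 12.63 against 12.78, 12.72, 12.83 and 12.77 and rose by 0.13 ± 0.04 (limma adjusted p = 0.0235), and without empty vector array 1 it kept its value of 0.13 and missed the threshold (limma adjusted p = 0.0515), as it did without empty vector array 3 or globin-labelled array 3 (limma adjusted p = 0.0601 and 0.0630).

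**Figure D4:**
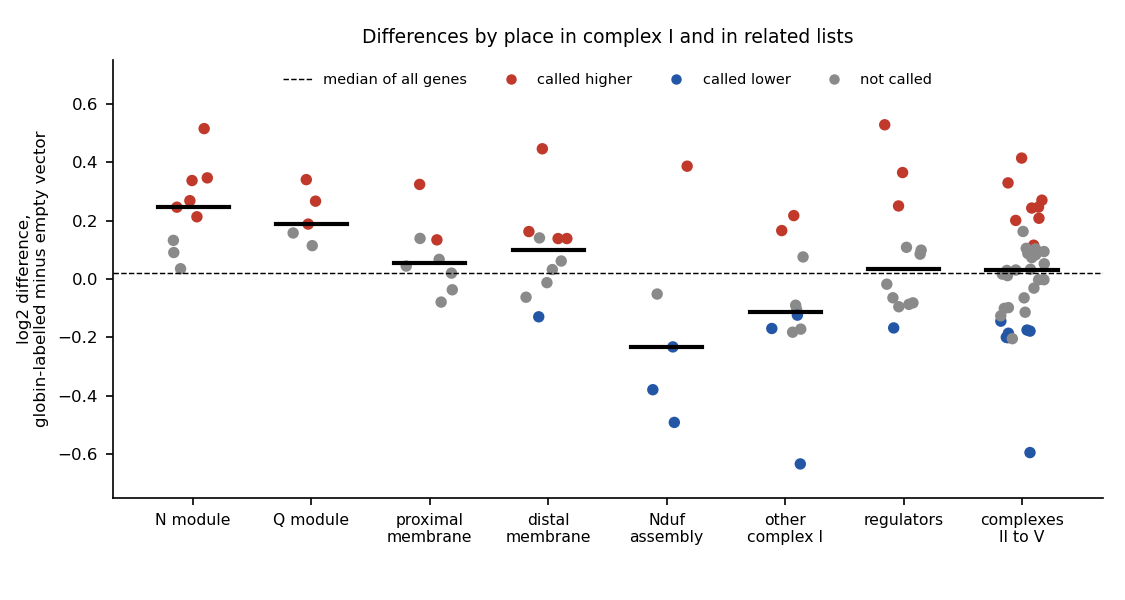
Log2 difference between globin-labelled and empty vector arrays (y axis) for the genes of each part of complex I and of 3 related lists (x axis), with 1 point a gene, black bars for list medians and a dashed line for the median of all genes at 0.02. Medians run from 0.25 in the N module to -0.23 in the Nduf assembly factors.

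Assembly factors help to build complex I and are not part of the finished enzyme. Of the 5 measured, 3 were called lower and 1 higher, against 20.1% and 20.6% of all genes. Ndufaf1, a chaperone of the assembly complex that builds the proximal membrane arm, read 10.99, 10.98 and 10.90 in the empty vector arrays and 10.41, 10.45, 10.55 and 10.45 in the globin-labelled arrays. The groups were far apart, and it fell by 0.49 ± 0.05 (limma adjusted p = 4.18e-05). Ndufaf5, which hydroxylates a residue of the Ndufs7 protein, read 10.003, 10.004 and 10.008 against 9.75, 9.77, 9.85 and 9.72 and fell by 0.23 ± 0.04 (limma adjusted p = 0.00193). Ndufaf7, a further assembly factor, read 9.98, 10.01 and 9.98 against 9.98, 9.92, 9.99 and 9.86 and did not pass, at -0.05 ± 0.04 (limma adjusted p = 0.392).

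Ndufaf3 and Ndufaf4, whose products bind each other and act on the early Q module, went in opposite directions. Ndufaf4 read 11.82, 11.91 and 11.68 against 11.42, 11.38, 11.45 and 11.45 and fell by 0.38 ± 0.05 (limma adjusted p = 0.000523), and its second probe set fell by 0.33 ± 0.05. Ndufaf3 read 11.40, 11.52 and 11.54 against 11.96, 11.81, 11.91 and 11.80 and rose by 0.39 ± 0.06 (limma adjusted p = 0.000519). Neither pair of groups overlapped. Without empty vector array 1 all 4 called assembly factors passed again, with -0.47 for Ndufaf1, -0.37 for Ndufaf4, -0.23 for Ndufaf5 and 0.34 for Ndufaf3.

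The sequences upstream of this opposed pair are shown for comparison, as the 250 bases before each RefSeq transcription start, written in the direction of the gene. Ndufaf3 lies on the minus strand at chr9:108567437-108567686 and Ndufaf4 on the plus strand at chr4:24897833-24898082 of GRCm38.p6. Capitals mark the binding word of nuclear respiratory factor NRF-1, searched on both strands with any base allowed at 1 place.
Ndufaf3: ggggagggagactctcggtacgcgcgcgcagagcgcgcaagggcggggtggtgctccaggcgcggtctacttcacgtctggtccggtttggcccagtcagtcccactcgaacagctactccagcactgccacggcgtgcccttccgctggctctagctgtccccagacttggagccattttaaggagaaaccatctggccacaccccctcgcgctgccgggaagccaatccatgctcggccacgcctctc
Ndufaf4: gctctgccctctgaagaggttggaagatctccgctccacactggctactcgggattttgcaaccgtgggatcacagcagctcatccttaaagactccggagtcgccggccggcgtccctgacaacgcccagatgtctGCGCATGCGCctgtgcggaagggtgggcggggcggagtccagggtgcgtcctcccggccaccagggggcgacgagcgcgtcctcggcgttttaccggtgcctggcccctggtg
Both stretches are rich in G and C, at 65.6% for Ndufaf3 and 66.4% for Ndufaf4 where the median over the array's genes was 58.4%. They hold 21 and 23 CpG dinucleotides. Ndufaf4 carries the NRF-1 word from base -113, counted from the start, and the word is not in the Ndufaf3 stretch shown.

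Words known from the promoters of nuclear respiratory genes were counted in the windows from 250 bases before to 50 bases after the start, on both strands, for the 36 members that matched the RefSeq promoter table. The NRF-1 word was present in 6 of 36 members, and in 9.36% of the 9887 array genes with a promoter. The word CCGGAAG, bound by ETS factors such as GABPA, was present in 5 of 36 and in 16.3% of array genes. The word AAGATGGC, bound by YY1, was present in 6 of 36 and in 4.39% of array genes. The word TNAAGGTCA, bound by the estrogen-related receptors, was in 0 of 36 windows and in 1.06% of array genes.

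The YY1 word is shown because of its like place in all 6 members. It lies 23 to 39 bases after the start, in the sense direction each time. Its place in the other array genes with the word was not examined. The 30-base windows below are in gene direction with the word in capitals.
Ndufb8: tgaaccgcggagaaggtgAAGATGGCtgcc
Ndufa9: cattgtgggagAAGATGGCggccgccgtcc
Ndufs4: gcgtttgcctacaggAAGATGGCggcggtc
Ndufs7: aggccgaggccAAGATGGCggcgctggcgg
Ndufa3: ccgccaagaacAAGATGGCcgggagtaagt
Ndufc1: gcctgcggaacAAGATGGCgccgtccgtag
Of these genes 5 were called higher and Ndufc1 was not called (0.14 ± 0.05, limma adjusted p = 0.0645). Among all 434 array genes with the word, 19.6% were called higher and 27.2% lower, against 20.6% and 20.1% of all genes. The windows lie at chr19:44555393-44555422, chr6:126849097-126849126 and chr13:114388045-114388074 on the minus strand for Ndufb8, Ndufa9 and Ndufs4. They lie at chr10:80249462-80249491 and chr7:3617384-3617413 on the plus strand for Ndufs7 and Ndufa3, and at chr3:51408915-51408944 on the minus strand for Ndufc1. The word also contains the letters of a start codon, and whether translation starts there was not examined.

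The NRF-1 and ETS words occurred in members of either direction, as these windows show.
Ndufa6: cccgtggcaccGCGCGTGCGCacgctgaag
Ndufaf5: tagtcccgttgGCGCATGCGCctaatagaa
Ndufs8: ttaggctccgcCTTCCGGttgaaccgcatc
Ndufaf1: cgggaccacaaCCGGAAGcgtggcgaaccg
Ndufa6 and Ndufs8 were called higher, whereas Ndufaf5 and Ndufaf1 were called lower. Capitals mark the NRF-1 word in Ndufa6 and Ndufaf5 and the ETS word in Ndufs8, where it lies on the other strand, and in Ndufaf1. They lie at chr15:82354250-82354279 (minus strand), chr2:140170651-140170680 (plus strand), chr19:3912741-3912770 (minus strand) and chr2:119662834-119662863 (minus strand), in that order. Of the 6 members with the NRF-1 word 1 was called higher and 2 lower, against 22.6% and 28.2% of all array genes with that word. Of the 5 with the ETS word 2 were higher and 1 lower, against 18.9% and 29.5% of all array genes with it.

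Genes for the factors that bind such words and their partners were measured as a list of 12 mitochondrial regulators, of which 3 were higher and 1 lower, beside 20.6% and 20.1% of all genes. Esrra, an estrogen-related receptor that drives respiratory genes, rose by 0.53 ± 0.05 (limma adjusted p = 6.34e-05). Nrf1, which encodes NRF-1, rose by 0.36 ± 0.06 (limma adjusted p = 0.00106), on 2 of its 3 probe sets. Gabpb1, a subunit of the ETS factor GABP, rose by 0.25 ± 0.04 (limma adjusted p = 0.00136), on both probe sets. Ppargc1b, a coactivator of these factors, fell by 0.17 ± 0.04 (limma adjusted p = 0.0150), a call that leaving out array 2 of the empty vector group ended (limma adjusted p = 0.0504). The median of the list was 0.03, close to that of all genes.

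Genes of complex I or its assembly without an Nduf symbol were fixed as a list of 20, of which 10 were measured. The subunit genes of the list that are encoded by mitochondrial DNA were not among those measured. Of the 10 measured genes 2 were called higher and 3 lower, near the 20.6% and 20.1% of all genes, with a median of -0.11. The calls numbered 3 without empty vector array 1 or 2 or globin-labelled array 3 or 4, where 35.6% to 37.5% of all genes were called. Lyrm2, which takes part in building the N module, fell by 0.63 ± 0.05, or 1.55-fold (limma adjusted p = 1.90e-05), on both probe sets, and Dmac1, a factor of the distal membrane arm, fell by 0.17 ± 0.04 (limma adjusted p = 0.00699). Foxred1 and Timmdc1, factors of the middle and membrane stages of assembly, rose by 0.22 ± 0.06 and 0.17 ± 0.05 (limma adjusted p = 0.0135 and 0.0269). Without empty vector array 1 neither passed (limma adjusted p = 0.0501 and 0.0662), and Timmdc1 was also lost without empty vector array 2 or 3 or globin-labelled array 3 or 4 (limma adjusted p = 0.0632 to 0.0658).

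Partners of Ndufaf1 in its assembly complex were looked at after the values were seen. With all 7 arrays neither Ecsit (-0.18 ± 0.07, limma adjusted p = 0.0589) nor Acad9 (-0.10 ± 0.04, limma adjusted p = 0.0945), which also oxidises fatty acids, was called. Ecsit passed without empty vector array 1 (-0.25, limma adjusted p = 0.0189) and Acad9 without empty vector array 3 (-0.14, limma adjusted p = 0.0340). Foxred1 and Timmdc1 of the same list were called higher, as given above. Tmem186, a further factor, fell by 0.12 ± 0.04 (limma adjusted p = 0.0489) on 1 of 3 probe sets, and missed the threshold on leaving out each of the 7 arrays in turn (limma adjusted p = 0.0505 to 0.124).

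Subunits of complexes II to V, measured beside complex I, divided into 8 higher and 7 lower of 37, near the 20.6% and 20.1% of all genes, with a median of 0.03. Uqcrh of complex III fell by 0.59 ± 0.04, Cox8a of complex IV rose by 0.41 ± 0.04, Atp5g2 of the ATP synthase rose by 0.33 ± 0.05 and Cyc1, cytochrome c1, rose by 0.25 ± 0.04 (limma adjusted p = 5.50e-06, 6.41e-05, 0.000554 and 0.000782). Complex I subunits had 15 higher and 1 lower of 33, and the difference between the lists was not tested.

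Different probe sets of a gene were compared next. Of 20 Nduf genes with over 1 single-symbol probe set, 6 had all of them called in 1 direction, 7 had none called, 6 had a part called and 1, Ndufa12, had calls in both directions. Its bright probe sets differed by 0.13 ± 0.07, 0.16 ± 0.05 and 0.18 ± 0.04, the last pair called higher, and a dim probe set was called lower at -0.40 ± 0.13. Ndufa10 likewise had 0.02 ± 0.04 on the bright probe set and -0.28 ± 0.06 on a dim one, the latter called lower. Probe sets annotated to several symbols gave the only signal for some subunits: that of Ndufa11 and Ndufa11b rose by 0.23 ± 0.06, those of Ndufb4 and its copies rose by 0.23 ± 0.05 and 0.27 ± 0.06, and that of Ndufs6 and Ndufs6b differed by 0.08 ± 0.05. Near-identical copies cannot be told apart there, and these probe sets entered no count.

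**Figure D5:**
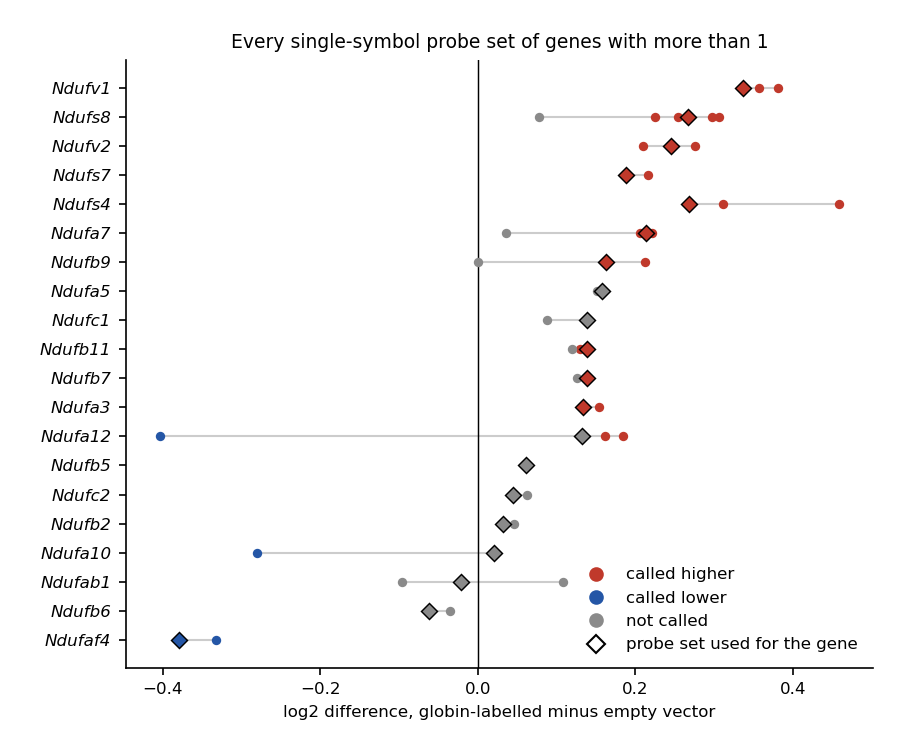
Log2 difference (x axis) of every single-symbol probe set of the 20 Nduf genes with more than 1 (y axis). Diamonds with a black edge are the probe sets used for the gene, circles the others, red called higher, blue called lower and grey not called; Ndufa12 alone has calls on both sides of 0.

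Chromosomal neighbourhood went with some calls. For each member the 10 nearest measured genes on either side were taken in the order of the GRCm38.p6 gene table, and over all genes the median number of these 20 neighbours called higher was 4 and that called lower was 4. Of the 17 higher members 5 had 8 or more neighbours called higher, a count reached at the 90th percentile of all genes. These were Ndufb9 with 10 of 20 higher, Ndufb8 with 9, Ndufs7 with 9, Ndufa6 with 8 and Ndufv1 with 8. Ndufb8 and Ndufa6 had 0 neighbours called lower, and their neighbours' median differences were 0.12 and 0.13, against own values of 0.45 and 0.35. Ndufv1 and Ndufs8 lie close together and share 13 neighbours. Other Nduf genes were not removed from the neighbours. Ndufs8, itself called higher, is therefore 1 of the 8 counted for Ndufv1, which reaches 8 only with it. Ndufaf4 fell among neighbours of which 10 of 20 were lower and 1 was higher, whereas Ndufv2 rose where 10 of 20 neighbours were lower, and Ndufv3 and Ndufaf3 had neighbour medians of 0.04 and -0.06. The part of the neighbourhood in these differences was not tested.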

How the data were processed

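Expression values on the log2 scale were taken from the authors' deposited table, and RMA is the method that the submitters' processing notes name (no version stated). RMA brings the arrays to a common distribution of probe intensities and therefore hides any shift common to most genes. The 7 columns entered unchanged, grouped by sample title. The 64 control features among the 22690 probe sets were not tested. Symbols came from the platform annotation. Differences were tested with limma 3.58.1 (R 4.3.3, lmFit and eBayes, two-sided, 9.10 total degrees of freedom). Members, lists and tests were chosen with earlier results of these data known. The text names all core subunits, assembly factors and called accessory subunits, with values per array for the first pair of classes, for Ndufa4 and for the 10 called accessory subunits of smallest adjusted p, and of each other list at most the 4 called genes of smallest adjusted p. Tmem186, Ecsit and Acad9 fall outside this rule and were chosen after their values were seen. Precision is limited by the number of arrays. Promoters are RefSeq's on GRCm38.p6. Alternatives changed the eBayes prior, array scaling, filters on dim probe sets, the arrays used, a replicate block and the rule for several probe sets.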

Additional observations from a re-analysis of the deposited data

Results flagged for a closer look

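Of 54 genes whose 4 globin-labelled arrays were examined, the 39 Nduf genes among them, 3 had a single array far from the rest of its group, where chance flags about 1 group in 20. Ndufs1 stood at 12.16 in globin-labelled array 3, against 12.06 in each of the others. Ndufv1 stood at 12.94 in globin-labelled array 1, against 12.84 to 12.86 in the others. Ndufb6, a distal membrane arm subunit that was not called (-0.06 ± 0.07), stood at 12.89 in globin-labelled array 4, against 13.10 to 13.12 in the others.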

How the results depend on the processing

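The count of Nduf genes called higher was 17, ran from 11 to 17 when single arrays were left out, with 11 without empty vector array 1, and was 10 with the replicate number as a block. It was 19 or 20 with the other eBayes prior, array scalings, filters on dim probe sets and the mean of a gene's probe sets. In those settings 40.6% to 61.3% of the genes kept were called in either direction. The filters on dim probe sets kept fewer genes and gave the highest shares, 52.9% and 61.3%. Of the 10 other complex I genes 5 were called, against 40.7% of all genes, 3 to 5 when single arrays were left out, and 2 with the replicate block. Same-numbered arrays of the groups deviated in opposite directions (correlations -0.31, -0.34 and -0.23 over all probe sets). These values show no shared deviation by replicate number, and the labels do not say whether the numbers pair the samples. The block cost degrees of freedom and globin-labelled array 4, and 29.0% of all genes were called with it. Over 15 alternatives, 12 Nduf calls held wherever the gene was kept: Ndufv1, Ndufv2, Ndufv3, Ndufa6, Ndufa9, Ndufa13, Ndufb8, Ndufs4 and Ndufaf3 higher, and Ndufaf1, Ndufaf4 and Ndufaf5 lower. The 4 lower calls numbered 3 or 4 on leaving out single arrays, and no called Nduf gene changed direction under these alternatives. Ndufa10 and Ndufb2, not called, turned from 0.02 and 0.03 to -0.01 and -0.00 without empty vector array 1. The calls of Ndufs7, Ndufb7, Ndufb11, Ndufa3 and Ndufb1 were each lost on leaving out any of several arrays.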
